A study of Mus musculus with 4 samples.

Results

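The cells described here were the 60 cells of a mouse primary mammary tumor library that devoted the largest share of their RNA molecules to 10 genes of the cell division cycle. They came from 425 tumor cells, in a series of 4 libraries with 1905 cells in all. The 10 genes (called rule genes below) were Pbk, Tk1, Spc24, Spc25, Prc1, Cenpf, Cenpw, Birc5, Top2a and Tyms. Molecules were counted as UMIs, a UMI being a tag on 1 captured RNA molecule. A barcode counted as a tumor cell when it passed a UMI minimum, showed 250 genes or more and had no more than 20% mitochondrially encoded UMIs, and the cells were then ranked by the share of their UMIs in the rule genes. Because the members were chosen by these measured counts, the levels of the rule genes in them describe the choice. The other 365 cells of the same library are called other tumor cells.

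The series is a droplet single-cell RNA study of MMTV-neu mice on the FvB background, which express a neu (HER2, Erbb2) transgene in mammary epithelium from the promoter of the mouse mammary tumor virus (MMTV). The primary tumor and late lung libraries came from mice over 20 weeks of age that carried primary tumors, and the early lesion (mammary gland) and early lung libraries from mice of 14 to 18 weeks with no palpable tumor. Every group carried the transgene, and every library was made with 10x Chromium 3′ v2 chemistry from cells sorted as CD45- HER2+. Each group had 1 library, and the number of mice behind a library is not given in the sources used here. There was therefore no replicate and no test. Counts and shares carry exact 95% intervals that cover counting error only, and leave out the spread between cells and between mice.

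A dividing cell copies its DNA in S phase and, after a gap (G2), separates the chromosomes in mitosis (M). The enzymes that make deoxynucleotides and copy DNA are transcribed mainly around S phase, whereas the cyclins, kinases and spindle proteins of mitosis accumulate in G2 and M and are destroyed as the cell divides. In tumors driven by HER2, signalling through the receptor is known to favour entry into this cycle.

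Of the rule genes, Tk1 (thymidine kinase) and Tyms (thymidylate synthase) make thymidine nucleotides, and Top2a untangles replicated DNA. Spc24 and Spc25 are subunits of the NDC80 complex that ties chromosomes to spindle microtubules, and Cenpf and Cenpw are centromere or kinetochore proteins. Prc1 bundles microtubules in the middle of the late mitotic spindle, Birc5 (survivin) belongs to the chromosomal passenger complex, and Pbk is a kinase of mitotic cells. Promoters of such genes are known for short elements, among them the cell cycle genes homology region (CHR), the CCAAT box and E2F sites. They are shown because the groups of genes below differ in these letters. RefSeq promoters (build GRCm38.p6, 250 bases before to 50 after the start) were found for 8 of the 10 rule genes, all but Pbk and Spc24. They were searched on both strands for the CHR letters TTTGAA and TTCGAA, for CCAAT, and for the E2F letters TTTGGCGC, TTTCCCGC, TTTCGCGC and TTTGCCGC. Matches stand in capitals, in the orientation of the gene, so that a match on the opposite strand reads as its reverse complement. The promoters of Prc1 (chr7:80294201-80294500, plus strand), Cenpf (chr1:189688037-189688336, minus strand) and Top2a (chr11:99024140-99024439, minus strand) hold CHR and CCAAT letters, and that of Tyms (chr5:30073576-30073875, minus strand) holds none of the 3 elements. The promoter of Cdk1 (chr10:69352863-69353162, minus strand), the kinase that starts mitosis, holds all 3 elements, and that of Mcm6 (chr1:128359656-128359955, minus strand), a subunit of the replicative helicase, holds 3 E2F matches, of which a pair overlaps, and CCAAT letters:
Prc1: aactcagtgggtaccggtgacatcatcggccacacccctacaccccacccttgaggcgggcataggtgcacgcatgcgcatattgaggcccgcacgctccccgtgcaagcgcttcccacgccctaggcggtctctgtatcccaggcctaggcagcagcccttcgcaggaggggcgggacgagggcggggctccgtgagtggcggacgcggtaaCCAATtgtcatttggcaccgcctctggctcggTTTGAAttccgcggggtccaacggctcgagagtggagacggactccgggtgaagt
Cenpf: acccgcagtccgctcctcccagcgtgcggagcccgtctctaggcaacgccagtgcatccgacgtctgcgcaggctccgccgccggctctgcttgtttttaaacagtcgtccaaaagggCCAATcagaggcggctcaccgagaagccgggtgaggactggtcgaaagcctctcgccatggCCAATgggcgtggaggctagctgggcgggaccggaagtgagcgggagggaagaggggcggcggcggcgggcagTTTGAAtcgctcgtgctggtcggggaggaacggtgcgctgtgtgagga
Top2a: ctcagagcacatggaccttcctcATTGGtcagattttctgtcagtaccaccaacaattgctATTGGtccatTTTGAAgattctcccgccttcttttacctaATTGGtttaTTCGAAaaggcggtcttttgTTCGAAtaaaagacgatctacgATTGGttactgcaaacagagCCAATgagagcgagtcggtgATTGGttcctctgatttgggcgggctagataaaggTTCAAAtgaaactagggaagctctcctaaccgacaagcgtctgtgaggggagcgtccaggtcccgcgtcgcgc
Tyms: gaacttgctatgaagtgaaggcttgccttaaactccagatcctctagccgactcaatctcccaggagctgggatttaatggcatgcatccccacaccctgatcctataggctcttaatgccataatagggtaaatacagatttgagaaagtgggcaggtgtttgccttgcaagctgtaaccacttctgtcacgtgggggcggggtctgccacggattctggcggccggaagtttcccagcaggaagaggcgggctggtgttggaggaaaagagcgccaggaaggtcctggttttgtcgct
Cdk1: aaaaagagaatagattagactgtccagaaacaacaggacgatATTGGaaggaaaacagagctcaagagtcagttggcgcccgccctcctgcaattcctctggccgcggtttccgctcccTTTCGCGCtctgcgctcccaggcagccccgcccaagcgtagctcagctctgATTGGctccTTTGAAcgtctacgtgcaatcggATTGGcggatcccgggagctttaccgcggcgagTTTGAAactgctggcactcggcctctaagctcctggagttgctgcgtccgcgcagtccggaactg
Mcm6: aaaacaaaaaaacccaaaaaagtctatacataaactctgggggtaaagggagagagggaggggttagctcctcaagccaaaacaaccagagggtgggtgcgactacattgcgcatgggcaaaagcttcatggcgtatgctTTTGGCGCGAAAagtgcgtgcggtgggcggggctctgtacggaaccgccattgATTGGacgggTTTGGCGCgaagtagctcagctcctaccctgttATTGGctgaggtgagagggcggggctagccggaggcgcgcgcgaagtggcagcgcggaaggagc

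CHR letters stood in the promoters of 5 of the 8 rule genes (Spc25, Prc1, Cenpf, Cenpw and Top2a), each of which also held CCAAT letters. In Cenpw the CHR and CCAAT matches overlap. E2F letters stood in none of the 8. Tk1, Birc5 and Tyms had none of these letters in the window, which says only that the searched letters are not in these 300 bases. In a list of G2 and M phase genes with the rule genes left out, CHR letters stood in 38 of 51 matched genes (74.5%), against 10 of 45 S phase genes (22.2%) and 21.7% of the 27025 genes of the table. E2F letters stood in 4 of the 51 G2 and M genes (7.84%), against 20 of the 45 S phase genes (44.4%) and 2.61% of all genes. CCAAT letters stood in 72.5% of the G2 and M genes and 66.7% of the S phase genes, against 41.1% of all genes. These shares describe letters and not occupied sites.

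The libraries held 3403140 UMIs in the primary tumor, 6366768 in the early lesion, 1070236 in the late lung and 743765 in the early lung. In the tumor, 18 cells over 10000 UMIs held 54.7% of the UMIs of all cells. Of these, 2 were members (12269 and 43783 UMIs) and 16 were other tumor cells, which held 375 of the 445 rule-gene UMIs found outside the members. The sums below leave the 18 cells out, so they compare 58 members (149436 UMIs) with 349 other tumor cells (675958 UMIs). Median depth in these cells was 2322 UMIs in members and 1585 in other tumor cells, and the median mitochondrial share was 0.414% and 0.457% in the same order. Cells with more than 10% mitochondrial UMIs numbered 3 of the 60 members and 44 of the 365 other cells. No barcode of a tumor cell was a cell barcode of another library. At a common depth of 1000 UMIs, to which each cell was thinned at random, the members had a median of 591 detected genes (n = 53 cells) and the other tumor cells 573 (n = 259).

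The label of tumor epithelium was checked against markers. All 8 luminal mammary markers were detected in the members, at 68993 CPM (UMIs of the gene or list scaled to 1000000 UMIs of the sum) in members and 57816 CPM in other tumor cells, and every member had between 15 and 4353 luminal UMIs. Free RNA, read from barcodes with 1 to 50 UMIs, held the same list at 54657.5 CPM. Of the 8 markers only Wfdc18 and Csn3 were higher in members than in free RNA, at 49707 against 27036 CPM and 14367 against 10922 CPM. The other 6, Epcam (569 against 926 CPM) and Krt8 (549 against 711 CPM) among them, were lower in members than in free RNA, whose part in the luminal UMIs was not tested. Against other tumor cells, too, only Wfdc18 (35881 CPM there) and Csn3 (9453 CPM there) were higher in members. The other 6 were lower in members, among them Trf (3118 against 9961 CPM) and Krt18 (448 against 907 CPM). Fibroblast, pericyte, immune, adipocyte and erythroid markers had 0 UMIs in the 58 members, and Ptprc (CD45) had 0 UMIs in both groups. The cells were sorted as CD45-, so the immune markers are no separate check of the label. In other tumor cells these lists were near absent too, with 1 (fibroblast) to 5 (immune) UMIs each. Of 6 basal markers only Acta2 was seen, with 1 UMI. Of the endothelial markers only Pecam1 was seen, with 8 UMIs in members against 39 in other cells, while Cdh5, Cldn5 and Kdr were at 0. Of 3 Schwann markers Sox10 was seen, with 27 UMIs in members against 113 in other cells. Both lists were at CPM close to those of free RNA (53.5 against 51.7 and 181 against 184). The 7 markers given for proliferating cells, all of them rule genes, were at 3299 CPM in members and 68.1 CPM in other tumor cells.

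**Figure D1:**
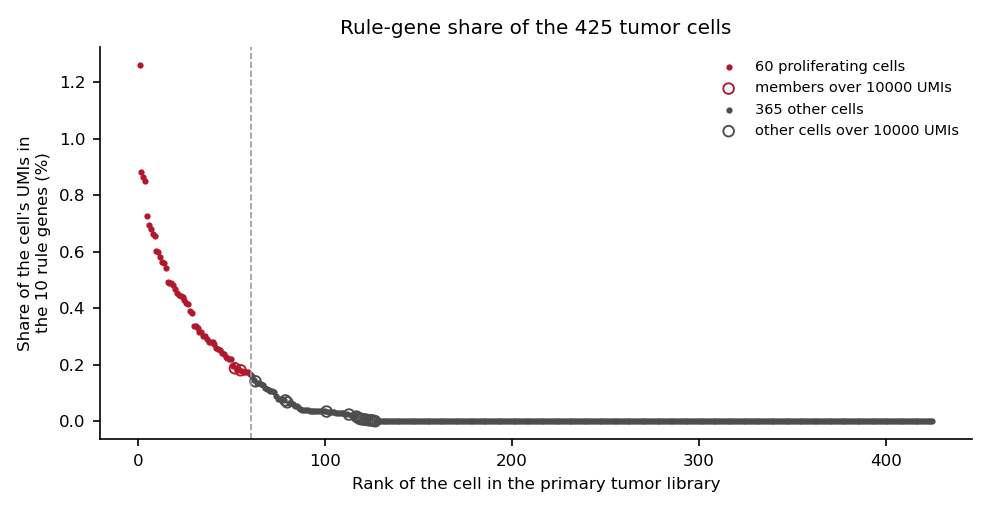
Each point is a tumor cell, placed by its rank (horizontal) and the percentage of its UMIs in the 10 rule genes (vertical), with members in red, other tumor cells in grey and cells over 10000 UMIs as open circles. The share runs from 1.26% down to 0.166% in the 60 members without a gap at the dashed line, and 299 of the 365 other cells are at 0.

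The rule-gene share of the members ran from 0.166% to 1.26%, with a median of 0.337%. It fell smoothly across the boundary. The last members had 3 rule-gene UMIs of 1723 and 2 of 1207, and the cells just outside had 1 of 630 (0.159%), 1 of 683 (0.146%) and 148 of 104762 (0.141%). Members had a median of 9 rule-gene UMIs (range 1 to 79). Of the 60, 28 had at least 10 and 8 had only 1 or 2. Free RNA held the rule genes at 542 CPM. A barcode made up of free RNA alone would have 1.29 rule-gene UMIs at the members' median depth (2388 UMIs). The part of free RNA in a cell is not known, so this is not the number expected in a member. The 8 members with 1 or 2 rule-gene UMIs were shallower, at a median of 904.5 UMIs, and the part of free RNA in them was not tested. Free RNA held more rule-gene RNA than the other tumor cells did (104 CPM), and less than the members (4055 CPM).

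No rule gene was seen in every member. Members had UMIs of 1 to 9 rule genes (median 5), and 50 of the 60 had at least 3. Pbk was the most widespread, with 182 UMIs in 50 of 60 members and up to 24 in a single cell. It had 65 UMIs in 19 of the 365 other tumor cells, of which 51 lay in cells over 10000 UMIs. Birc5 followed with 103 UMIs in 38 members, against 35 UMIs in 9 other cells, and Spc24 with 73 UMIs in 37 members, against 39 in 12. Spc25 was seen in 34 members, Tk1 and Tyms in 29 each, Cenpw in 28 and Prc1 in 22. Cenpf and Top2a were seen in the fewest members, with 39 UMIs in 13 and 22 UMIs in 11. The proliferation marker gene Top2a was thus without a UMI in 49 of 60 members. The 3 rule genes with the most UMIs in the 16 deep other cells were Tyms (60), Top2a (57) and Pbk (51). On mm10 (GENCODE M21), Tk1 (chr11:117815526-117826092, minus strand) and Birc5 (chr11:117849251-117855743, plus strand) lie close together and are transcribed away from each other, and Pbk lies at chr14:65805837-65817822 on the plus strand.

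**Figure D2:**
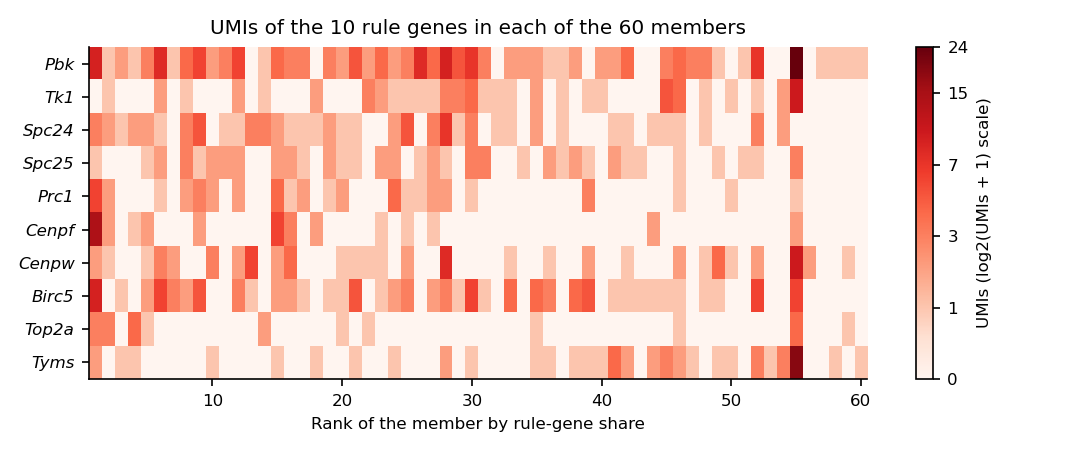
Colour gives the UMIs of each rule gene (rows) in each of the 60 members, ordered by rule-gene share (columns, highest share at the left). Pbk is filled in 50 of the 60 columns and Top2a in 11, and a single deep member at rank 55 stands out with 24 Pbk and 19 Tyms UMIs.

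Lists of S phase genes and of G2 and M phase genes, with the rule genes left out, were then summed in each cell. The G2 and M list stood at 9957 CPM in members and 590 CPM in other tumor cells, and the S list at 3968 CPM and 991 CPM in the same order. By rank, the G2 and M list stood at 20154 CPM (18807 to 21571) in members 1 to 20, at 7040 CPM in members 21 to 40 and at 4687 CPM in members 41 to 60. The S list ran differently, at 2447 CPM (1993 to 2973) in members 1 to 20, 4688 CPM in members 21 to 40 and 4352 CPM in members 41 to 60. The highest ranks were thus the richest in mitotic RNA and the poorest of the members in S phase RNA. Most rule genes act in mitosis, and the rank is built on them. Just outside the members, ranks 61 to 80 held the S list at 4175 CPM (3431 to 5032), with the G2 and M list at 1139 CPM. That S level is a pooled sum carried by few cells. In ranks 61 to 80, 4 of 17 cells gave 88 of the 110 S list UMIs and 5 had none, and without the highest cell the level was 3379 CPM. The median share of a cell's UMIs in the S list was 0.365% in members 41 to 60, against 0.146% in ranks 61 to 80. Cells with no rule-gene UMI were at 746 CPM for the S list and 520 CPM for the G2 and M list.

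S and G2/M RNA were often found in the same member. Of the 60 members, 52 had UMIs of both lists, 5 of the G2 and M list alone, 1 of the S list alone and 2 of neither. Among 54 members with at least 10 UMIs over both lists, the G2 and M list gave a median of 76.9% of these UMIs (range 16.7% to 100%). It gave over 75% in 29 members, between 25% and 75% in 21 and under 25% in 4. Some rule genes divided along the same line. Prc1 stood at 487 CPM, 72.5 CPM and 0 in these groups, in the order just given, and Cenpf at 448 CPM, 45.3 CPM and 0. Tk1 ran the other way, at 198, 308 and 653 CPM, and so did Tyms, at 211, 326 and 508 CPM. Birc5 stood at 830, 344 and 145 CPM, and Pbk at 1080, 806 and 581 CPM. The members were chosen on these rule genes, so these levels partly follow from the choice. A member low in some of them reached its rank through others. Unlike the sums elsewhere, these groups include the 2 members over 10000 UMIs, both in the group between 25% and 75%. These 2 cells gave 7 and 24 of its 89 Pbk UMIs, and 3 and 19 of its 36 Tyms UMIs. The Pbk and Tyms levels of that group therefore lean on 2 cells. The group of 4 held only 8 Pbk, 9 Tk1 and 7 Tyms UMIs, so its levels rest on few molecules. The 8 members with only 1 or 2 rule-gene UMIs held the G2 and M list at 4278 CPM (2886 to 6107) and the S list at 2994 CPM (1854 to 4577), both above the levels of cells with no rule-gene UMI. The member at rank 60 gave 18 of these 30 G2 and M UMIs and 3 of the 8 gave none. Without that member the G2 and M level was 2067 CPM (1068 to 3610).

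**Figure D3:**
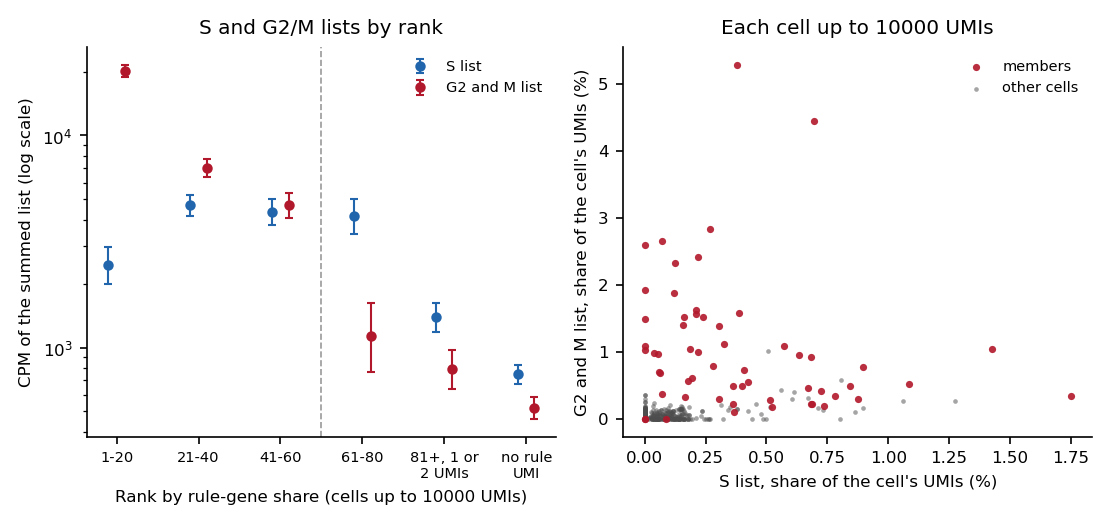
Left, CPM of the summed S list (blue) and G2 and M list (red) by rank, with exact 95% counting intervals on a log axis, members left of the dashed line. The G2 and M list is at 20154 CPM in ranks 1 to 20 and 1139 CPM in ranks 61 to 80, while the S list is at 4352 CPM in ranks 41 to 60 and 4175 CPM in ranks 61 to 80. Right, each cell of at most 10000 UMIs by its share of UMIs in the S list and in the G2 and M list, members in red.

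Across the transcriptome, calls were made for genes with at least 20 counts over both sums, from the ratio of the CPM after adding 0.5 counts to each. A call of higher or lower needed a 2-fold difference and an interval that did not contain 1. The rule genes stay out of these counts. In the members, 318 of 4239 genes were called higher (7.5%) and 275 lower (6.49%), with a median log2 ratio of -0.05. These calls come from the same cells that the rule ranked and describe them. Of the 318 higher genes, 99 were on the 18 lists described below, and of the 275 lower genes, 13. The share of all 4239 genes on these lists was not counted, so neither count is read as a result about the lists. The filter keeps a gene through the sum in which it is high, so the lists below are described by the members that reached 20 counts.

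Genes of G2 and M phase stood highest. Of the 59 list genes in the files, 23 reached 20 counts, and 21 of these were called higher and 0 lower, with a median log2 ratio of 5.35, or 5.29 with genes at 0 taken at their bound. Ccna2 (cyclin A2) had 46 UMIs in 26 of 58 members and 0 in 349 other cells. Against a floor of 3 counts in the sum this is at least 69.4-fold higher, a bound that, like those below, holds for cells of at most 10000 UMIs. Ccnb1 (cyclin B1) had 39 UMIs against 0, at least 58.8-fold higher, and Hmmr and Tpx2, which organise the spindle, 26 against 0 each, at least 39.2-fold higher. Ube2c, the enzyme that hands ubiquitin to the anaphase-promoting complex, had 151 UMIs in 35 members and 7 in 6 other cells, at a log2 ratio of 6.51 (5.53 to 7.95). The activator of that complex, Cdc20, had 65 UMIs against 7, at 5.30 (4.27 to 6.76), and Cdk1 had 76 against 8, at 5.35 (4.37 to 6.69). Few-molecule genes gave wide intervals. The mitotic kinases Aurka (28 UMIs against 1) and Plk1 (21 against 1) had log2 ratios of 6.43 (4.39 to 12.3) and 6.02 (3.93 to 11.9). Nusap1 (44 against 1), Ccnb2 (37 against 2), Ckap2 (26 against 1) and Cdca3 (27 against 2) lay between 5.64 and 7.07. Mki67, the gene of the Ki-67 proliferation antigen, had 18 UMIs in 10 members and 0 in other tumor cells. It was below the 20-count minimum and, in these cells, at least 27.1-fold higher. The 16 deep other tumor cells did hold these RNAs, with 12 UMIs of Ccna2, 21 of Ccnb1, 9 of Hmmr, 7 of Tpx2 and 52 of Mki67. With all cells in both sums the ratios were therefore smaller, at 36.8-fold for Ccna2, 15.5-fold for Ccnb1, 25.2-fold for Hmmr, 29.9-fold for Tpx2 and 3.82-fold for Mki67, and the median of the G2 and M list was 3.58. The list genes not called were Spag5 (5 UMIs against 31, at -0.34) and Rangap1 (9 against 19, at 1.14).

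The kinetochore and chromosome structure lists were less fully covered. On the kinetochore and spindle checkpoint list, 6 of the 7 genes with 20 counts were called higher and 0 lower, at a median of 2.60. Cenpa, the histone variant that marks centromeres, had 40 UMIs in 21 members and 0 in other cells, at least 60.3-fold higher among cells of at most 10000 UMIs. The deep other cells held 39 Cenpa UMIs, and with all cells summed the ratio was 9.26-fold. Cdca8 (borealin), a partner of Birc5 in the passenger complex, had 43 UMIs against 6, at 4.92 (3.78 to 6.54), and the checkpoint gene Mad2l1 22 against 5, at 4.21 (2.88 to 6.07). Of 10 condensin and cohesin genes, 4 were called higher and 0 lower, at a median of 0.37. The 4 were Pttg1 (securin), at 4.91 (3.91 to 6.27), Smc2, at 4.73 (3.16 to 7.31), Smc4, at 2.57 (1.22 to 4.02), and Rad21, at 1.44. Smc4 was not called under 5 of 15 alternative settings, among them a mitochondrial limit of 10% and members with at least 3 rule-gene UMIs. The cohesin core genes Smc1a and Smc3 were not called, at -0.14 and -0.25.

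DNA replication genes were higher by smaller ratios. Of 58 S phase genes, 24 reached 20 counts, 20 were called higher and 0 lower, and the median log2 ratio was 1.98. Gmnn (geminin), the inhibitor of repeated origin licensing that accumulates from S phase until mitosis, had the highest ratio, with 31 UMIs against 9, at 3.91 (2.86 to 5.22). Slbp, which binds histone mRNA, had 52 UMIs against 46, at 2.35 (1.75 to 2.96), and Pcna, the sliding clamp of the polymerase, 36 against 35, at 2.22 (1.51 to 2.93). The helicase subunits Mcm2, Mcm6 and Mcm7 lay at 2.31, 2.28 and 1.72. The clamp loader genes Rfc2, Rfc4 and Rfc5 were each at 2.18, and Rfc3 at 1.86, while Rfc1 was not called, at -0.27 with 8 UMIs against 46. Dnmt1, Usp1 and Fen1 also missed the call. On the nucleotide synthesis list 8 of 17 genes were called higher and 0 lower, at a median of 1.09. Rrm2, the cycle-regulated subunit of ribonucleotide reductase, had 46 UMIs in 23 members and 15 in 11 other cells, at 3.76 (2.93 to 4.74). Its partner Rrm1 was at 1.89. Dut, which makes the substrate of Tyms, was at 2.76 (2.22 to 3.32). The purine synthesis genes Paics, Gart and Atic were not called, at 0.35, 0.72 and -0.39.

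The most abundant cycle-linked RNAs were those of chromatin and microtubule proteins, with UMIs in most members. H2afz, the gene of histone variant H2A.Z, had 517 UMIs in 52 of 58 members and 276 in 152 of 349 other cells, at 3.08 (2.87 to 3.30). Stmn1 (stathmin), which destabilises microtubules, had 402 UMIs in 54 members and 145 in 90 other cells, at 3.65 (3.37 to 3.93). After thinning to 1000 UMIs, Stmn1 was seen in 81.1% of members (68.0% to 90.6%) and 13.5% of other cells (9.60% to 18.3%), and H2afz in 86.8% and 30.1% in the same order. Without thinning the Stmn1 shares were 93.3% and 28.5%. On the histone and chromatin list 20 of 28 genes were called higher and 0 lower, at a median of 1.56. They included Hmgb1 (1.29), Hmgn2 (2.32), Dek (2.16), Lmnb1 (3.36) and the histone chaperone Asf1b (3.69, 2.37 to 5.38). The replacement histone genes H3f3a and H3f3b were not called, at 0.04 and 0.80. Hist1h2ae had 28 UMIs against 2, at 5.69, but belongs to a family of near-identical genes that the authors' counting could split. On the tubulin and nuclear transport list 8 of 12 genes were called higher and 0 lower, at a median of 1.83. Tuba1b was at 3.09 (2.81 to 3.38), Tubb5 at 3.05 (2.76 to 3.35), Ran at 1.96 and its partner Ranbp1 at 1.69. Tuba1a, close in sequence to Tuba1b, was not called, at -0.56.

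Regulators of the cycle were mixed. On the list of cyclins, CDKs and inhibitors 7 of 16 genes were called higher and 1 lower, at a median of 0.92. Higher were Cdkn3 (4.80, 3.24 to 7.37), Ube2s (2.11, 1.73 to 2.48), Cdk2 (2.18), Fzr1 (1.90), Ccnh (1.20) and the inhibitors of Cdk4 and Cdk6 Cdkn2d (4.37, 2.92 to 6.51) and Cdkn2c (2.47). For Cdkn2d, a single member gave 8 of the 20 UMIs, and the log2 ratio was 3.69 without it. The inhibitor gene Cdkn1c (p57) had 0 UMIs in members and 48 in 20 other tumor cells, at least 3.54-fold lower, and 25 of the 48 lay in a single cell. The G1 cyclin Ccnd1, to which HER2 signalling is known to lead, was not called, with 29 UMIs in 21 members and 95 in 72 other cells, at 0.48 (-0.19 to 1.08). Cdk4 was at 0.59, Cdkn1b (p27) at 0.04 (-1.61 to 1.25) and Cdkn1a (p21) at 0.96 (-0.31 to 2.03), and none was called. The interval of Cdkn1b spans more than 2-fold either way.

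**Figure D4:**
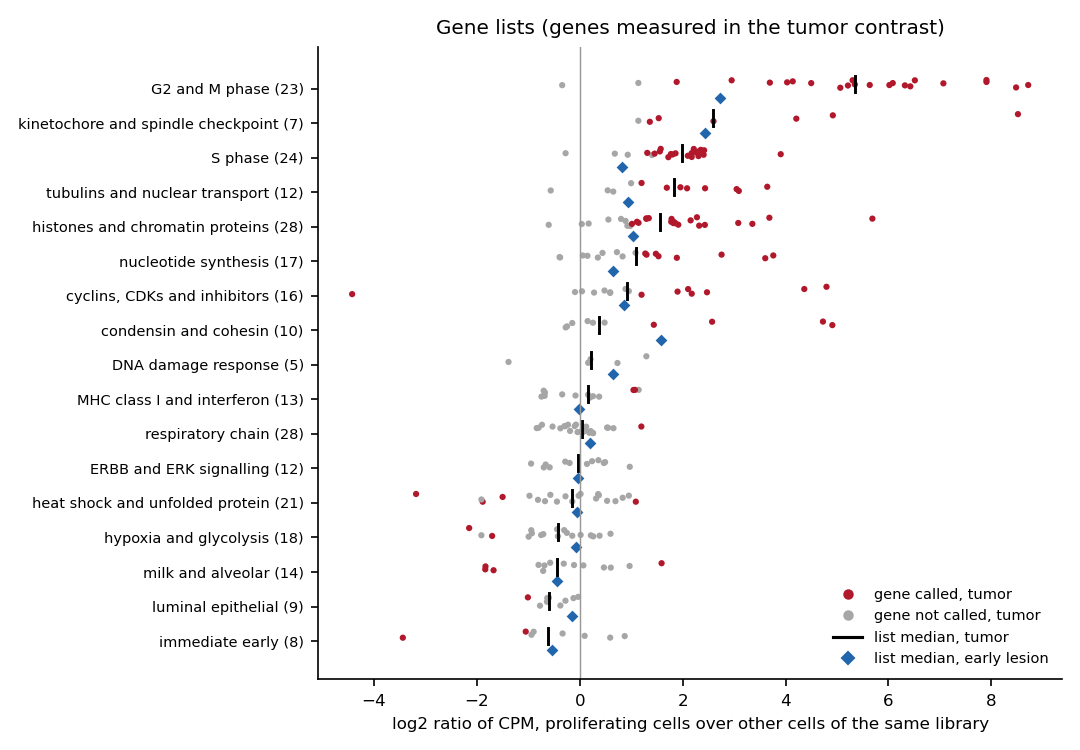
Each row is a gene list with the number of genes measured in the tumor, ordered by median. Points are genes, placed by the log2 ratio of CPM in the 58 members over the 349 other tumor cells (red where called), black ticks are medians, and blue diamonds are medians of the same list in the early lesion, over the genes measured there. Lists with fewer than 5 measured genes are left out, which applies to the basal and myoepithelial list. Among those drawn, medians run from 5.35 for G2 and M phase to -0.61 for immediate early genes.

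Genes lower in the members were mostly outside the cycle. Of the 275 genes called lower, 52 had no UMI in the members. The lowest by the interval included Igfbp5, an insulin-like growth factor binding protein, with 8 UMIs in 8 members and 284 in 110 other tumor cells, at -2.89 (-4.20 to -1.97). Trf, the transferrin gene expressed by luminal cells, had 466 UMIs in 53 members and 6733 in 337 other cells, at -1.67 (-1.81 to -1.54). Aldoa, the glycolytic aldolase, had 86 UMIs in 40 members and 1734 in 282 other cells, at -2.15 (-2.49 to -1.84). Its near-identical relative Aldoart1 was lower too, at -2.90 (-6.28 to -1.32), and reads of the pair cannot be told apart with certainty. Srebf1, a transcription factor of lipid synthesis, had 6 UMIs against 156, at -2.41 (-3.99 to -1.37). Clic6 was at -1.98 (-2.96 to -1.23) and Car6, a secreted carbonic anhydrase, at -3.16 (-5.67 to -1.80) with 39 of the 141 UMIs of other cells in a single cell. Klhdc1 and Rbpms had 0 UMIs in members and 50 and 47 in other cells, at least 3.68-fold and 3.46-fold lower among cells of at most 10000 UMIs. With all cells summed Rbpms had 4 UMIs against 97, at -1.46 (-3.53 to -0.22). Restricted to cells with at most 10% mitochondrial UMIs, the log2 ratios were -2.18 for Igfbp5, -1.17 for Trf and -2.16 for Aldoa.

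The mitochondrially encoded genes stood at 7669 CPM in members and 17540 CPM in other tumor cells, and 9 of the 11 were called lower, at a median of -1.30. With cells of more than 10% mitochondrial UMIs left out on both sides, 0 of the 11 were called and the median was -0.62. Nuclear genes of the respiratory chain had a median of 0.05, with 1 of 28 called higher (Cycs, at 1.20, 0.81 to 1.57) and 0 lower. Of 81 cytosolic ribosomal protein genes none was called higher or lower, at a median of -0.19.

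Differentiation genes were mixed. On the milk and alveolar list 1 of 14 genes was called higher and 3 lower, at a median of -0.44. The casein gene Csn1s2a had 1261 UMIs in 46 members and 1893 in 181 other tumor cells, at 1.59 (1.49 to 1.70). A single member held 385 of these UMIs, and without it the ratio was 1.16. The most abundant milk genes, Wfdc18 (7428 UMIs against 24254) and Csn3 (2147 against 6390), were not called, at 0.47 and 0.60, while Muc15 was at -1.83 (-3.62 to -0.68) and Xdh, which acts in milk fat secretion, at -1.84. Of 9 luminal genes, Krt18 was called lower, at -1.01 (-1.40 to -0.65), and 0 higher, at a median of -0.60. Its keratin partner Krt8 was at -0.03, the highest of the 9, and Epcam at -0.28 (-0.63 to 0.05). All 9 luminal genes thus lay below 0, and with a 1.5-fold threshold 4 of them were called lower. Krt18 was at -0.98 with the mitochondrial limit of 10%, below the threshold of the call.

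Signalling and stress lists had medians between -0.61 and 0.21, around the -0.05 of all genes. Of 12 ERBB and ERK genes 0 were called in either direction, at a median of -0.03, and they included the ERK feedback genes Dusp6 (-0.70) and Spry2 (-0.66) and the targets Etv4 (0.97) and Etv5 (0.14). Erbb2 itself had 2 UMIs in members and 12 in other cells, and the files hold no separate entry for the transgene. Nf1, a brake on RAS, was at 0.49 (-0.09 to 1.02). With all cells summed, 23 genes of the ERBB and ERK list were measured, and 1 was called higher and 3 lower. Over all 7465 genes measured in that sum, 7.66% were called higher and 8.99% lower. Erbb2 (-1.62) and Nf1 (-1.05) were among the 3 lower genes of the list. Nf1 stood at 1142 CPM in the other tumor cells over 10000 UMIs and at 178 CPM in the remaining other tumor cells. In members it stood at 642 and 248 CPM in the same order. On the immediate early list 2 of 8 genes were called lower and 0 higher, at a median of -0.61 (-0.58 with Fos at its bound). These were Fos, with 0 UMIs in members and 24 in 14 other cells (at least 1.77-fold lower, a bound short of 2-fold), and Jund, at -1.05 (-1.85 to -0.40). Jund was short of 2-fold under 4 of 15 alternatives, among them the top 80 cells as members (-0.91). Fos lost the call under 5 of 15, among them the top 40 and the top 80 cells as members. On the hypoxia and glycolysis list 2 of 18 were called lower and 0 higher, at a median of -0.43. Those called were Aldoa and Bnip3 (-1.70, -4.23 to -0.28), while Gapdh, Ldha and Pgk1 lay between -0.30 and 0.26. With the top 40 cells as members 5 of the 18 were called lower, at a median of -0.82. The basal list had 1 gene with 20 counts, Lgals1, called lower at -1.16 (-2.76 to -0.06). The heat shock and unfolded protein list had 1 gene higher, the cytosolic chaperone Hsp90aa1 at 1.09 (0.69 to 1.47). On it 3 were lower, Canx (-1.89), Herpud1 (-1.50) and Dnajb9 (0 UMIs against 20, at least 1.47-fold lower). The immunoproteasome genes Psmb8 and Psmb9 were higher, at 1.05 (0.63 to 1.44) and 1.07 (0.28 to 1.80), on a list of 13 MHC class I and interferon genes with a median of 0.16. Psmb8 and Herpud1 lost the call under 4 of 15 alternatives each. Of 5 DNA damage genes 0 were called in either direction, at a median of 0.21.

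The same calculation in the early lesion used the cells there with a rule-gene share of at least that of the last tumor member, 0.166%. They were 165 of 1085 cells. The 159 of them with at most 10000 UMIs were set against 905 other lesion cells. Their median rule-gene share was lower than that of the tumor members, at 0.234% in the 159 lesion cells against 0.360% in the 58 members. In the lesion 497 of 7923 genes were called higher (6.27%) and 162 lower (2.04%), with a median log2 ratio of 0.13. On the G2 and M list 49 of 50 genes were higher and 0 lower, at a median of 2.73, and on the S list 20 of 52 were higher and 1 lower, at a median of 0.82. More list genes reached 20 counts there, in sums of 542247 UMIs for the selected cells and 2970329 for the other lesion cells. The G2 and M list stood at 11462 CPM in the selected lesion cells and 1934 CPM in the other lesion cells, and the S list at 2652 CPM in the selected and 1525 CPM in the other lesion cells. The other tumor cells, against which the members were set, held the G2 and M list at 590 CPM.

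Gene by gene, tumor and lesion ratios are given side by side, and their difference was not tested. Of 316 genes called higher in the tumor members and measured in both libraries, 108 (34.2%) were called higher in the lesion, 0 lower and 208 neither. Over all 4134 genes measured in both, 175 (4.23%) were called higher in the lesion and 70 (1.69%) lower. Of 255 called lower in the tumor, 20 (7.84%) were lower in the lesion, 2 higher and 233 neither. The shared genes made up 61.7% of the 175 and 28.6% of the 70. Ube2c was at 6.51 in the tumor and 3.16 (2.98 to 3.34) in the lesion, Cdk1 at 5.35 and 2.92 (2.64 to 3.21), and Stmn1 at 3.65 and 1.51 (1.38 to 1.63). Gmnn was at 3.91 in the tumor and 0.83 (0.28 to 1.34) in the lesion, where it was not called. Cdkn1b was at 0.04 in the tumor and 1.29 (0.68 to 1.84) in the lesion, where it was called higher. Igfbp5 (-2.89 and -0.80), Trf (-1.67 and -0.74) and Car6 (-3.16 and -0.31) were called lower in the tumor only, while Aldoa (-2.15 and -1.05) and Clic6 (-1.98 and -3.04) were called lower in both. Csn1s2a, higher in the tumor members, was at -0.20 (-0.22 to -0.18) in the lesion.

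**Figure D5:**
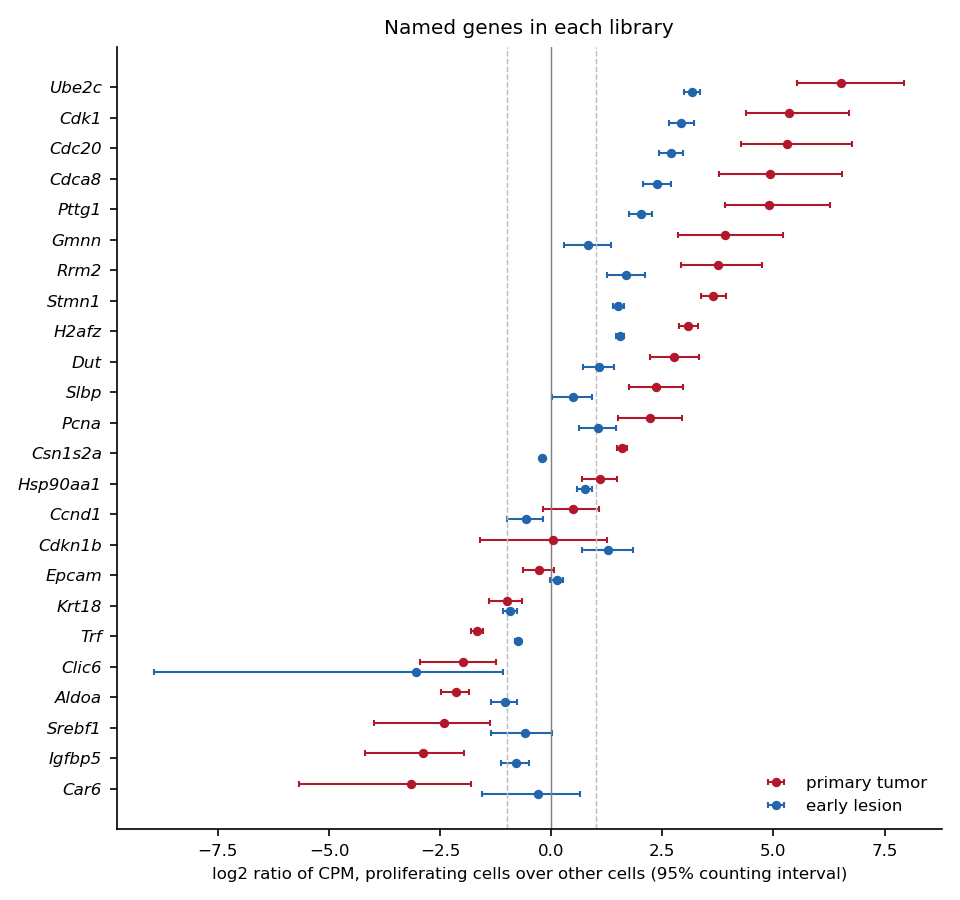
Log2 ratios of CPM, proliferating cells over other cells of the same library, for 24 of the named genes, with exact 95% counting intervals. The primary tumor (red) stands above the early lesion (blue) in each row. Dashed lines mark 2-fold. Ube2c is at 6.51 in the tumor and 3.16 in the lesion, and Car6 at -3.16 and -0.31.

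Across the 4 libraries, cells were compared after thinning to 1000 UMIs, counting those with at least 2 rule-gene UMIs. In the primary tumor they were 47 of 312 cells (15.1%, 11.3% to 19.5%), in the early lesion 180 of 1041 (17.3%, 15.04% to 19.7%), in the late lung 1 of 79 (1.27%, 0.0320% to 6.85%) and in the early lung 0 of 55, where 3 cells would make 5.45%. Without thinning and over all cells the shares were 18.8% of 425, 32.3% of 1085, 1.43% of 210 and 0.541% of 185 in the same order. The order of tumor and lesion depended on the minimum. With at least 3 UMIs the thinned share was 10.6% in the tumor and 9.03% in the lesion, with at least 1 it was 21.5% and 34.2%, and the intervals of tumor and lesion overlapped at 2 and at 3. Free RNA held the rule genes at 542 CPM in the tumor, 587 CPM in the lesion, 40.8 CPM in the late lung and 29.9 CPM in the early lung. Its part in the cells with a single UMI was not tested.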

How the data were processed

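The authors deposited UMI counts: whole-number counts per gene and barcode for each of the 4 libraries, with no normalization. Per the submitters' processing notes, reads were placed on mm10. The aligner, counting software and annotation release are not given in the sources used here. Members, gene lists and comparisons were chosen with earlier results of these data known.

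Cells of the tumor needed 534 UMIs, 250 genes and a mitochondrial share of at most 20%. In other libraries the UMI minimum was 500, or 0.1 times percentile 99 among the top 3000 totals where that was more. Counts were summed over cells of at most 10000 UMIs and scaled to CPM. Ratios add 0.5 counts to each sum and carry exact conditional binomial 95% intervals, and shares carry exact Clopper-Pearson intervals. Folds against a sum of 0 use a floor of 3 counts. The calculation was tested on simulated data. Doublets were kept. Scrublet (scanpy 1.11.5, 20 principal components) called 3 of 425 cells, 1 of them a member, and an alternative leaves them out. Computation used Python 3.11.15, numpy 2.4.6, scipy 1.17.1 and pandas 2.3.3.

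Named genes were, beside the rule genes, the 15 highest and 10 lowest called genes, ordered by whichever bound of the interval lay closer to 1, up to 3 genes per list in the same ordering, and Mki67, Cdk1, Ccnb1, Ccna2, Pcna, Mcm2, Ccnd1, Cdkn1a, Cdkn1b, Erbb2, Ptprc, Nf1 and Epcam. Mitochondrial, ribosomal protein, predicted and pseudogene entries were left out of the ranked part. Further list genes are named with their values to describe a list and were chosen after their values were seen. Alternatives changed the member rule, cell filters, counts added, count minimum, fold, scaling, depth and doublets.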

Additional observations from a re-analysis of the deposited data

Results flagged for a closer look

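Far1, which makes fatty alcohols for ether lipids, was called lower in the tumor members and higher in the early lesion cells chosen by the same share. It had 3 UMIs in members and 46 in other tumor cells, at a log2 ratio of -1.55 (-4.09 to -0.12), and in the lesion 37 against 97, at 1.08 (0.48 to 1.62). Oxr1, an oxidation resistance gene, went the same way, with 0 UMIs in members and 29 in other tumor cells (a fitted log2 ratio of -3.71, at least 2.14-fold lower) and in the lesion 17 against 46, at 1.04 (0.12 to 1.85). These were the only genes with opposite calls among 4134 measured in both libraries. The difference between the libraries was not tested, and both genes rest on few molecules.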

How the results depend on the processing

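Against 318 genes higher and 275 lower, summing all cells gave 572 and 671, a minimum of 50 counts 160 and 159, thinning every cell to 1000 UMIs 146 and 110, no count minimum 566 higher, and adding 5 counts 45 lower. The last adds the same counts to sums of unequal size and shifts the median log2 ratio to 0.38. The other counts stayed within 1.5 times. The number of genes measured also changed, from 4239 to 7465, 2183, 2031 and 11696 for all cells, 50 counts, thinning and no minimum. Higher genes were 7.5% of those measured, and 7.66%, 7.33%, 7.19% and 4.84% in the same order. Lower genes were 6.49%, and 8.99%, 7.28%, 5.42% and 2.44%. Lists with at least 6 genes measured and a median of at least 1 numbered 6, and 3 after thinning, which left fewer genes measured. The G2 and M median ran from 3.58 to 5.60. The S median ran from 1.55 to 2.25 where at least 6 genes were measured, and was 1.30 over the 3 genes left after thinning. The tumor share of 15.1% was 21.5% with at least 1 UMI, 10.6% with at least 3 and 11.2% with 7 marker genes. Of 65 named genes, none that was called with the deep cells left out changed sign under an alternative. In the sum of all cells Csn1s2a (0.94), Hsp90aa1 (0.97), Krt18 (-0.73) and Bnip3 (-1.38) lost the call. Erbb2 (-1.62), Cdkn1a (2.81) and Mki67 (1.93) gained one. Nf1 gained one too, at -1.05, although it was at 0.49 with the deep cells left out. Calls of named genes were lost by 35 after thinning and by 25 with a minimum of 50 counts, and by at most 7 under each other alternative. The minimum of 50 counts left the ratios themselves unchanged. Krt18, Smc4 and Fos lost the call under 5 of 15 alternatives each, Lgals1 under 7, and Jund, Herpud1 and Psmb8 under 4 each. Of the 318 higher and 275 lower genes, 290 and 201 kept the call when cells were ranked by the 7 marker genes, 244 and 140 with the top 40 cells, 273 and 170 with the top 80, 274 and 190 with all cells summed, and 104 and 60 after thinning. No paired analysis was possible because each group has 1 library. Depth limits genes with few UMIs, whose intervals span several-fold.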
